A study of Mus musculus with 22 samples.

Results

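The genes described here encode soluble hydrolases of the lysosome, proteins of its limiting membrane and subunits of the vacuolar proton pump (V-ATPase) that acidifies it. They are a named list of 42 genes, from which cathepsins were left out, taken by symbol from 21995 genes in the tables. The rule used no threshold on a measured value. RNA-seq was performed on whole spinal cord of C57BL/6 mice in 2 experiments. For aging, 8 young wild-type mice at 3-4 months were compared with 8 old wild-type mice at 18-24 months, all males, with libraries made with the Roche RNA KAPA HyperPrep kit. For amyotrophic lateral sclerosis (ALS), 3 SOD1-G93A mice at 5-6 months (genotype G93a in the labels) were compared with 3 litter- and gender-matched wild-type control mice of the same age, with Illumina TruSeq libraries. SOD1-G93A mice carry a high-copy transgene of mutant human SOD1 and develop motor neuron disease, so they model an inherited, overexpressed form of ALS, and each ALS group held animals of both sexes. Kit and experiment coincide, so the ALS and aging libraries were compared only through the change inside each experiment.

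Lysosomes degrade glycans, lipids and proteins that arrive by endocytosis, phagocytosis and autophagy. Their hydrolases work at acidic pH, which the V-ATPase maintains with a membrane-embedded V0 sector and a cytosolic V1 sector that hydrolyses ATP. Many lysosomal genes carry a CACGTG-containing element bound by the transcription factor TFEB. In the spinal cord all cell types have lysosomes, and phagocytic microglia are known for high levels of many hydrolases. The tissue is a mixture, so more cells of a type and more RNA per cell cannot be told apart.

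Total expected counts per library ranged from 5078092 to 9358055 in young, from 5664869 to 9145600 in old, from 10693060 to 13219797 in control and from 9675610 to 11872431 in SOD1-G93A mice. All 8 Hox genes and all 6 motor neuron genes listed as markers of the tissue were detected at testable levels. The old library with the third-lowest total count was the least like its group, with a correlation of 0.992 with the rest of its group against 0.996 to 0.997 for the other old libraries. Its 10 most abundant genes took 15.1% of its counts against 8.01 to 11.9% in the others. It also had the highest sums of the Hox genes (682 against 411 to 556 CPM) and of oligodendrocyte precursor markers (1521 against 1045 to 1280 CPM) among old mice. The ALS libraries are listed below in order of increasing total count. Levels are in CPM, read counts on a common scale set by TMM library sizes, and changes are log2 fold changes ± standard error from edgeR's quasi-likelihood test, with p-values adjusted by Benjamini-Hochberg over all genes tested. A gene was called higher or lower at an adjusted p under 0.05.

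In old mice, 25 of the 39 members that could be tested were higher than in young mice, none was lower and 14 were not called. The background was 13.5% of 13647 genes called higher and 12.9% called lower. Atp6v1a was lower at an unadjusted p under 0.05, and DESeq2 called that member lower too. The median change of the tested members was 0.23, against -0.00 for all genes. Most increases were small: 17 of the 25 were under 0.5 log2 units, 5 were from 0.5 to 1, and 3 were above 1, where the background was 2.18% (and 0.044% below -1). Young and old mice did not overlap in 13 of the 25, against 3.66% of all genes in the higher and 1.66% in the lower direction. Without the old library that stood apart, the added calls were Arsa, Smpd1 and Atp6v1b2 (higher) and Atp6v1a (lower). No share of all genes is given for this fit, so it shows only how far the calls depend on that library.

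In SOD1-G93A mice, 26 of 41 tested members were higher than in controls, 5 were lower and 10 were not called, against 18.4% of 14386 genes called higher and 15.5% called lower. Among these, Mcoln3 and Atp6v0d2 passed the filter on low counts only through the SOD1-G93A libraries. Over the 39 members tested in both experiments, 24 were higher and 5 lower, with a median change of 0.54 against 0.00 for all genes. Changes above 1 log2 unit were found in 11 members, or 9 of the 39 tested in both, against 8.5% of all genes. No member fell by more than 1, against 1.2%. The groups did not overlap in any of the 29 members called among the 39, but groups of 3 also did not overlap in the higher direction for 25.7% of genes and in the lower direction for 24.7%. Leaving out each ALS library in turn, with the filter applied anew, 22 to 30 members were higher and 0 to 5 were lower. The members tested can differ between these fits, and the higher ones always include Mcoln3 and Atp6v0d2. No share of all genes is given for these fits, so the range shows only how far the calls depend on single libraries and on the filter.

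**Figure D1:**
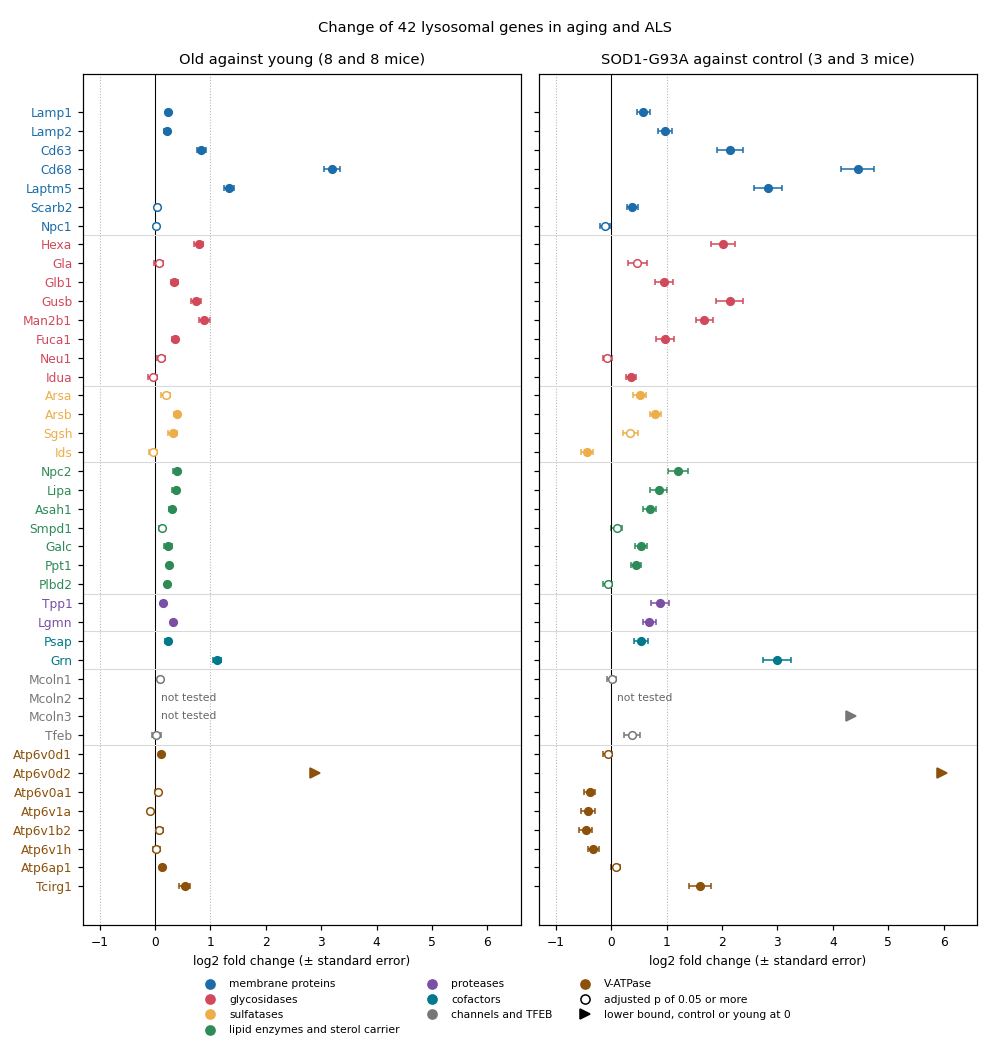
Log2 fold change (x axis, ± standard error) of the 42 members (y axis, coloured by role) for old against young mice on the left and SOD1-G93A against control mice on the right; filled circles have an adjusted p under 0.05 and triangles are lower bounds. In old mice no member was called lower, and in SOD1-G93A mice 4 of the 5 members called lower were V-ATPase subunits.

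Most membrane proteins of the lysosome rose in both experiments. In old mice 5 of 7 were higher with a median change of 0.24, and in SOD1-G93A mice 6 of 7 were higher with a median of 0.98. Of all genes, 13.5% were called higher in aging and 18.4% in ALS. Cd68, or macrosialin, a heavily glycosylated protein of macrophage and microglial lysosomes, had the largest change of any member tested in both experiments. Cd68 (chr11:69664213-69666153, minus strand, GRCm38) ranged from 3.84 to 8.82 CPM in young mice, with a median of 5.41, and from 33.3 to 65 CPM in old mice, with a median of 54.7. The highest young mouse was thus far below the lowest old mouse, and the change was 3.20 ± 0.15 (adjusted p = 6.53e-13, edgeR). In controls Cd68 was at 5.41, 6.15 and 6.99 CPM, and in SOD1-G93A mice at 82.6, 146 and 178 CPM. The lowest SOD1-G93A value was again far above the highest control, and the change was 4.45 ± 0.29 (adjusted p = 8.14e-05, edgeR).

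Laptm5, a lysosomal transmembrane protein of blood-derived and microglial cells, ranged from 31.4 to 44.0 CPM in young mice (median 37.7) and from 64.6 to 112 CPM in old mice (median 97.0). The groups did not overlap, the library that stood apart being the lowest old value, and the change was 1.34 ± 0.09 (adjusted p = 1.09e-10, edgeR). In controls Laptm5 was at 36.7, 36.3 and 33.7 CPM and in SOD1-G93A mice at 156, 268 and 336 CPM, a change of 2.83 ± 0.25 (adjusted p = 0.000185, edgeR). Cd63, a tetraspanin of late endosomes and lysosomes, ranged from 62.5 to 74.7 CPM in young mice (median 66.2) and from 78.8 to 139 CPM in old mice (median 123). The lowest old value came from the library that stood apart, and it was still above every young mouse. The change of Cd63 was 0.83 ± 0.08 in aging (adjusted p = 4.29e-08, edgeR). With 72.6, 52.2 and 73.8 CPM in controls and 191, 332 and 355 CPM in SOD1-G93A mice, it was 2.15 ± 0.24 in ALS (adjusted p = 0.000444, edgeR).

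The abundant structural glycoproteins Lamp1 and Lamp2, which line the inner face of the lysosomal membrane, changed less. Lamp1 was higher by 0.24 ± 0.04 in old mice and by 0.58 ± 0.11 in SOD1-G93A mice, without overlap of the groups in either experiment. Lamp2 was higher by 0.22 ± 0.05 and by 0.98 ± 0.12, and its young and old values overlapped. Scarb2, the receptor that carries glucocerebrosidase to the lysosome, was called in ALS (0.38 ± 0.09, adjusted p = 0.0138, edgeR) and not in aging (0.04, adjusted p = 0.512). Npc1, the membrane protein that exports cholesterol, was called in neither, with changes of 0.03 in aging and -0.11 in ALS.

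**Figure D2:**
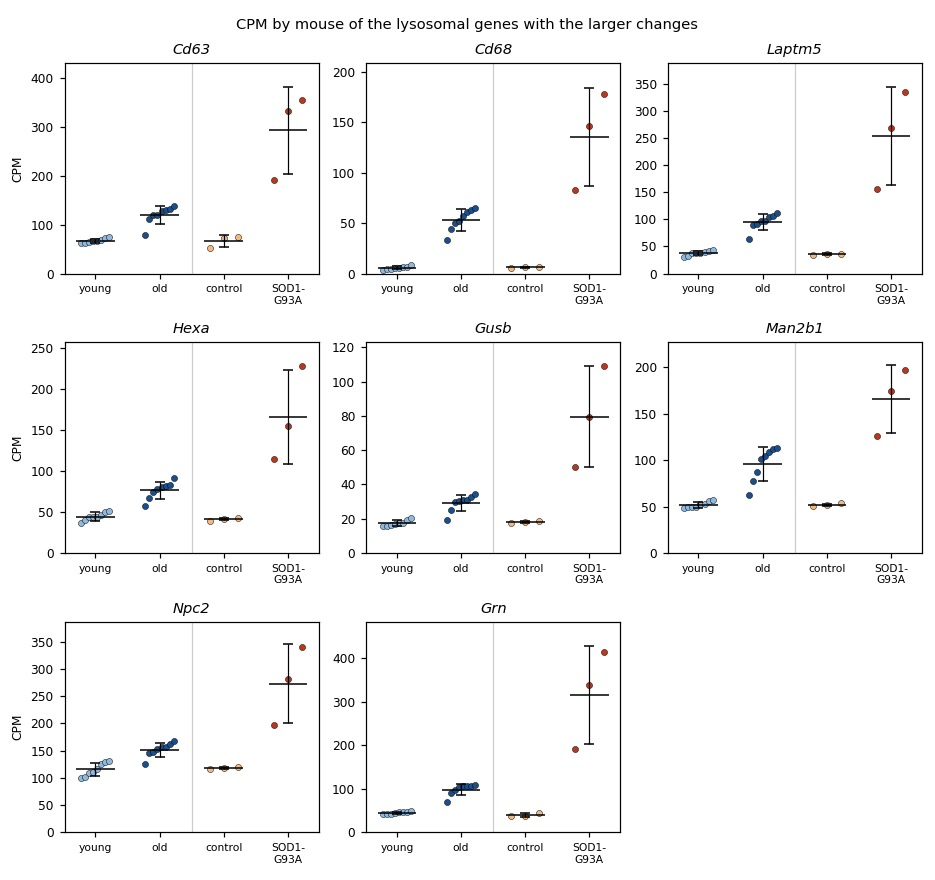
CPM (y axis, linear from 0) in each mouse of 8 members that changed by over 1 log2 unit in aging or ALS, with points for mice and bars for the mean ± SD of 8 young, 8 old, 3 control and 3 SOD1-G93A mice. The 3 SOD1-G93A mice lie above the 3 controls in each panel and are spread widely, from 82.6 to 178 CPM for Cd68. Of all genes, 25.7% were higher without overlap in these groups of 3.

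Among glycosidases, which remove sugars from glycoproteins, glycolipids and glycosaminoglycans, 5 of 8 were higher in aging and 6 of 8 in ALS, with median changes of 0.36 and 0.96. The shares of all genes called higher were 13.5% and 18.4%. Hexa, the alpha subunit of beta-hexosaminidase, ranged from 36 to 51 CPM in young mice (median 43.7) and from 57.2 to 91 CPM in old mice (median 79.1), with no overlap and with the library that stood apart at the lowest old value. It was at 39.5, 41.3 and 42.4 CPM in controls and at 115, 155 and 228 CPM in SOD1-G93A mice. The changes were 0.79 ± 0.08 in aging (adjusted p = 1.17e-07, edgeR) and 2.01 ± 0.22 in ALS (adjusted p = 0.000417, edgeR).

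Man2b1, the lysosomal alpha-mannosidase, ranged from 48.7 to 56.5 CPM in young mice (median 51.1) and from 62.9 to 113 CPM in old mice (median 103), again without overlap and with the same library lowest. In controls it was at 53.3, 51.0 and 51.5 CPM and in SOD1-G93A mice at 126, 174 and 197 CPM. Its changes were 0.89 ± 0.09 (adjusted p = 1.54e-07, edgeR) and 1.68 ± 0.15 (adjusted p = 0.00022, edgeR). Gusb, or beta-glucuronidase, ranged from 15.8 to 20.5 CPM in young mice (median 17.3) and from 19.0 to 34.4 CPM in old mice (median 30.5). The single old mouse inside the young range was the library that stood apart. Gusb was at 18.0, 18.5 and 17.6 CPM in controls and at 50.2, 79.3 and 109 CPM in SOD1-G93A mice, and its changes were 0.74 ± 0.10 in aging (adjusted p = 3.52e-06, edgeR) and 2.14 ± 0.25 in ALS (adjusted p = 0.000536, edgeR).

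The beta-galactosidase Glb1 and the alpha-fucosidase Fuca1 were higher by 0.35 ± 0.07 and 0.36 ± 0.06 in old mice, and by 0.95 ± 0.16 and 0.97 ± 0.16 in SOD1-G93A mice. Idua, the alpha-iduronidase that starts the breakdown of heparan and dermatan sulfate, was called only in ALS, with a change of 0.35 ± 0.09 (adjusted p = 0.0188, edgeR), and its change differed between the experiments (adjusted p = 0.041, edgeR). Both calls of Idua were lost in 5 of the 6 fits that left out an ALS library, the exception being the SOD1-G93A library with the lowest total count, with the ALS adjusted p reaching 0.0692 (edgeR). Gla (alpha-galactosidase A) and Neu1 (a sialidase) were called in neither, with changes of 0.07 and 0.11 in aging and 0.47 and -0.07 in ALS. In one fit of all libraries Gla was called higher in ALS (0.45, adjusted p = 0.0163, edgeR), as it was without the SOD1-G93A library of lowest total count.

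Of the 4 sulfatases, which take sulfate groups off glycans and glycolipids, 2 were higher in aging and 2 in ALS. The shares of all genes called higher were 13.5% and 18.4%. Arsb, the arylsulfatase that acts on dermatan sulfate, was higher in both (0.39 ± 0.05 and 0.80 ± 0.10). Sgsh, the heparan sulfamidase, was higher in old mice (0.32 ± 0.08) and not called in ALS (0.35, adjusted p = 0.0695), although it was called there in one fit of all libraries (adjusted p = 0.0299, edgeR), under limma and without the SOD1-G93A library of lowest total count. Its 2 changes differed by 0.00 ± 0.14. Arsa, which cleaves sulfatide of myelin, was called in ALS (0.51 ± 0.12, adjusted p = 0.012, edgeR) and had a change of 0.19 in aging (adjusted p = 0.0787).

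Ids, the iduronate sulfatase that acts on heparan and dermatan sulfate, went the other way in ALS. Ids was at 420, 448 and 399 CPM in controls and at 359, 278 and 297 CPM in SOD1-G93A mice. Ids was thus lower in every SOD1-G93A mouse than in every control, as were 24.7% of all genes. It fell by 0.44 on the log2 scale (standard error 0.11, adjusted p = 0.0177, edgeR). In aging Ids ranged from 377 to 473 CPM in young mice (median 413) and from 337 to 528 CPM in old mice (median 393), overlapping over most of the range, with a change of -0.04 (adjusted p = 0.787). The change in ALS differed from that in aging by -0.43 ± 0.15 (adjusted p = 0.0404, edgeR). This call was lost in 5 of the fits that left out a library, with an adjusted p up to 0.151 (edgeR). Among them was the fit without the old library that stood apart.

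The enzymes of lipid breakdown, with the cholesterol carrier Npc2, were higher in 6 of 7 cases in aging and in 5 of 7 in ALS, with median changes of 0.25 and 0.54. The shares of all genes called higher were 13.5% and 18.4%. Npc2, which hands cholesterol to Npc1, ranged from 99.2 to 132 CPM in young mice (median 114) and from 125 to 168 CPM in old mice (median 155), with overlap by the old library that stood apart. It was at 120, 119 and 117 CPM in controls and at 197, 281 and 341 CPM in SOD1-G93A mice. The changes of Npc2 were 0.39 ± 0.06 (adjusted p = 5.4e-05, edgeR) and 1.21 ± 0.17 (adjusted p = 0.00168, edgeR). The lysosomal acid lipase Lipa was higher by 0.37 ± 0.07 and 0.86 ± 0.16, and the acid ceramidase Asah1 by 0.30 ± 0.05 and 0.69 ± 0.12. Galc, which degrades the myelin lipid galactosylceramide, and Ppt1, which removes palmitate from proteins, were higher in both by 0.24 to 0.54. Smpd1, the acid sphingomyelinase, was called in neither, with changes of 0.12 and 0.10.

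Plbd2, a phospholipase B-like protein, was higher in old mice without overlap (127.8 to 147 CPM in young, 148 to 172 CPM in old), with a change of 0.22 ± 0.04 (adjusted p = 0.000325, edgeR). In ALS its values overlapped, at 136, 128 and 140 CPM in controls and 123, 135 and 129 CPM in SOD1-G93A mice, with a change of -0.06 (adjusted p = 0.597). The changes differed by -0.31 ± 0.08 (adjusted p = 0.00515, edgeR).

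Both proteases on the list, and both cofactors, were higher in each experiment, against 13.5% of all genes in aging and 18.4% in ALS. The tripeptidyl peptidase Tpp1 changed by 0.15 ± 0.04 in old and 0.88 ± 0.16 in SOD1-G93A mice, and its aging call was lost under limma (adjusted p = 0.566) and in one fit of all libraries (adjusted p = 0.104, edgeR). Lgmn, or legumain, an asparaginyl endopeptidase, changed by 0.33 ± 0.04 and 0.68 ± 0.12. Psap, the precursor of the saposins that help enzymes reach membrane lipids, was the most abundant member per length, with a mean of 599 ± 36.6 FPKM (SD, n = 8) in young mice, followed by Lamp1 at 285 ± 16.8 FPKM. It was higher by 0.23 ± 0.05 in old mice, where only the library that stood apart was within the young range, and by 0.54 ± 0.12 in SOD1-G93A mice. In young mice 8 of the 41 neighbouring pairs of members in the order of FPKM did not overlap, so that most neighbours cannot be ranked.

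Grn encodes progranulin, a secreted and lysosomal glycoprotein whose loss causes frontotemporal dementia in people. Grn (chr11:102430315-102437048, plus strand) ranged from 41.6 to 49.4 CPM in young mice (median 45.3) and from 68.6 to 108 CPM in old mice (median 105). No old mouse was within the young range, the lowest being the library that stood apart, and the change was 1.13 ± 0.07 (adjusted p = 8.33e-11, edgeR). It was at 45.1, 36.4 and 37.3 CPM in controls and at 192, 338 and 414 CPM in SOD1-G93A mice, a change of 2.99 ± 0.26 (adjusted p = 0.000182, edgeR). The increase in ALS was larger than that in aging by 1.84 ± 0.21 (adjusted p = 3.08e-06, edgeR), the largest difference between the experiments among the 39 members tested in both.

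The mucolipin channels release calcium and other cations from lysosomes, and TFEB is the transcription factor that switches on lysosomal genes. Mcoln1, the widely expressed channel, ranged from 64.4 to 73.0 CPM in young and from 67.5 to 76.8 CPM in old mice, and was at 73.5, 76.3 and 79.8 CPM in controls and 77.8, 74.4 and 79.2 CPM in SOD1-G93A mice. Its changes were 0.09 (adjusted p = 0.126) and 0.01 (adjusted p = 0.925). Tfeb was called in neither experiment, with changes of 0.02 in aging (adjusted p = 0.885) and 0.38 in ALS (adjusted p = 0.0818). In one fit of all libraries Tfeb was called higher in ALS (0.35, adjusted p = 0.0384, edgeR), as it was without the SOD1-G93A library of lowest total count.

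Mcoln3 had no counts in any young or control library. It was counted in 7 of 8 old libraries, with at most 10 counts and a mean of 0.563 CPM, which is at least 1.42-fold higher than the mean CPM that 3 counts per young library stand for. In SOD1-G93A mice it was at 2.42, 4.21 and 8.73 CPM, at least 20-fold higher than the same floor in controls. Mcoln3 and Atp6v0d2 could pass the filter only by being high in SOD1-G93A mice, so no p-value is given for them. Mcoln2 had at most 2 counts per library in young and control mice, at most 7 in old mice and at most 17 in SOD1-G93A mice, and it was below the filter in both comparisons. Without a filter it was called higher in ALS (adjusted p = 0.0297, edgeR).

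The V-ATPase subunits called in ALS went in both directions, as did those called among all genes. In old mice 3 of 7 tested subunits were higher, against 13.5% of all genes, with a median change of 0.08. In ALS 2 of 8 were higher and 4 were lower, against 18.4% and 15.5% of all genes. The count of higher subunits is near the share of all genes and includes Atp6v0d2, which passed the filter only through SOD1-G93A mice. The median in ALS was -0.19, which holds also with Atp6v0d2 at its bound. The 2 that were higher are the isoforms known from osteoclasts and macrophages, Tcirg1 (the a3 subunit of V0) and Atp6v0d2 (the d2 subunit of V0). Tcirg1 ranged from 15.4 to 19.2 CPM in young mice (median 17.3) and from 16 to 30.5 CPM in old mice (median 25.6), and only the old library that stood apart was inside the young range. It was at 24.1, 22.6 and 26.0 CPM in controls and at 49.8, 87.6 and 82.5 CPM in SOD1-G93A mice. The changes were 0.53 ± 0.09 (adjusted p = 0.000165, edgeR) and 1.60 ± 0.20 (adjusted p = 0.000748, edgeR).

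Atp6v0d2 (chr4:19876841-19922605, minus strand) had no counts in any of the 8 young or 3 control libraries. Each of the 8 old libraries held 5 to 35 counts, from 0.673 to 4.58 CPM with a median of 3.30, which is at least 7.36-fold higher than the floor of 3 counts per young library. These levels kept it below the filter in the aging comparison, and all 8 old mice were above the young mice. In SOD1-G93A mice it was at 7.45, 11.5 and 29.0 CPM, at least 62.5-fold higher than the floor. Its change could not be set against the other experiment, since both reference groups were at 0.

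The widely expressed subunits Atp6v0a1, Atp6v1a, Atp6v1b2 and Atp6v1h were lower in SOD1-G93A mice and were not called in old mice. Atp6v0a1 (chr11:101009452-101063719, plus strand), the a1 subunit of V0 that is abundant in neurons, was at 391, 379 and 380.4 CPM in controls and at 318, 290.2 and 269 CPM in SOD1-G93A mice, and it fell by 0.39 on the log2 scale (standard error 0.09, adjusted p = 0.0126, edgeR). In young mice it ranged from 431 to 478 CPM (median 464) and in old mice from 446 to 542 CPM (median 472), a change of 0.05 (adjusted p = 0.439). The B2 subunit Atp6v1b2, part of the catalytic head, was at 596, 614 and 574 CPM in controls and at 510.02, 409.6 and 375 CPM in SOD1-G93A mice, and it fell by 0.46 (standard error 0.12, adjusted p = 0.0188, edgeR). Its range was 589.8 to 732 CPM in young (median 657) and 514 (in the library that stood apart) to 773 CPM in old mice (median 698), where its change was 0.08 (adjusted p = 0.407). In each of the 4 genes every SOD1-G93A mouse was below every control, while old and young mice overlapped.

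Atp6v1a, the catalytic A subunit, was at 425, 481 and 422 CPM in controls and at 388, 299.6 and 305 CPM in SOD1-G93A mice, and it fell by 0.42 (standard error 0.12, adjusted p = 0.0268, edgeR). In young mice it ranged from 424 to 475 CPM (median 440.1) and in old mice from 389.9 to 439 CPM (median 421), and its change of -0.09 (adjusted p = 0.0873) was just outside the threshold. Without the old library that stood apart, Atp6v1a was lower in aging by -0.10 (adjusted p = 0.0498, edgeR). Atp6v1h, the regulatory H subunit, was at 161, 170 and 151 CPM in controls and 142, 117 and 126 CPM in SOD1-G93A mice, and it fell by 0.33 (standard error 0.10, adjusted p = 0.0313, edgeR). It ranged from 127 to 169 CPM in young (median 145) and from 119 to 166 CPM in old mice (median 149), with a change of 0.02 (adjusted p = 0.849).

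These 4 decreases and that of Ids rest on few libraries. None of the 5 was called without the control library of the lowest or middle total count or without the SOD1-G93A library of the middle total count, with adjusted p-values reaching 0.132 (edgeR, for Atp6v1h), although their log2 fold changes stayed negative, between -0.60 and -0.26, in all 6 fits that left out a library. The SOD1-G93A library with the lowest total count was the highest of its group in all 5, and the lowest of its group in 25 of the 26 members called higher. Of the members called higher, Scarb2 lost its call in 3 of the 6 fits (adjusted p up to 0.0719, edgeR), and Arsa (up to 0.0572) and Psap (up to 0.0551) in 2 each, among them in all 3 cases the fit without the control library of middle total count. The remaining subunits, Atp6v0d1 (d1 of V0) and the accessory protein Atp6ap1, were higher in old mice by 0.11 ± 0.04 and 0.13 ± 0.04, and had changes of -0.06 and 0.08 in ALS that were not called. Both aging calls were lost under limma on the log2 FPKM values, and that of Atp6v0d1 also without a filter (adjusted p = 0.0656, edgeR).

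**Figure D3:**
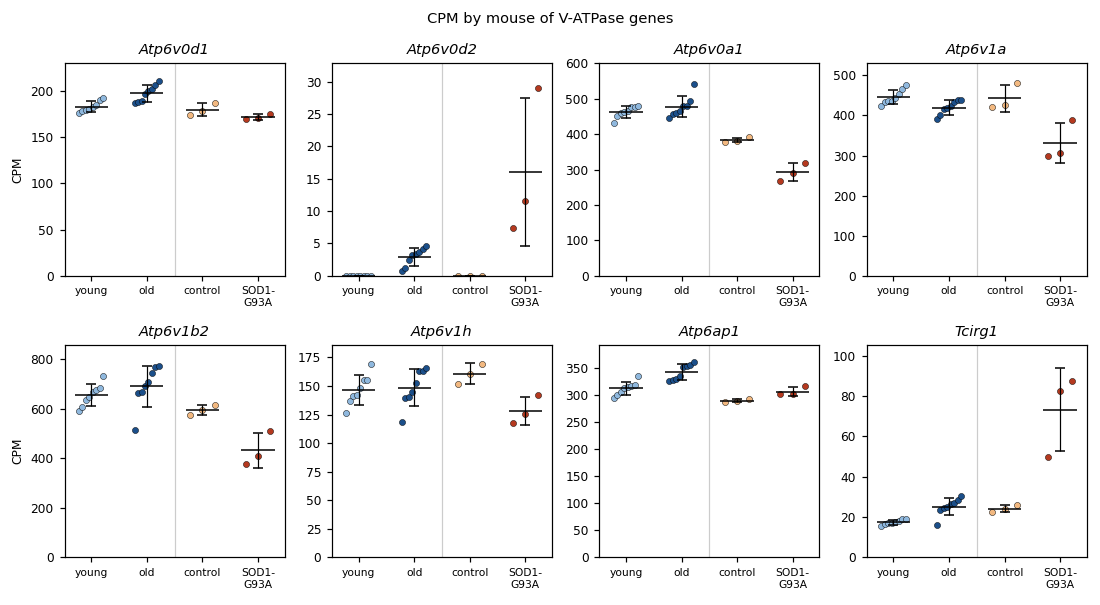
CPM (y axis, linear from 0) of the 8 V-ATPase members in each mouse, with points for mice and bars for the mean ± SD of each group. Atp6v0d2 was at 0 in all young and control mice, while Atp6v0a1, Atp6v1a, Atp6v1b2 and Atp6v1h were lower in all 3 SOD1-G93A mice than in the 3 controls. Of all genes, 24.7% were lower without overlap in these groups of 3.

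The change in ALS was then compared with that in aging by an interaction term fitted over all 22 libraries. Of the 39 members tested in both, 20 had a more positive change in ALS, 7 a more negative one and 12 were not called, against 11.6% and 14.2% of 14502 genes. Leaving out each ALS library in turn, 13 to 24 were more positive and 4 to 7 more negative, with 13 and 4 without the SOD1-G93A library of highest total count. Both calls were in the higher direction for 21 of the 25 members that rose with age. The matching share among all genes that rose with age is not given here, so this count is not shown to be particular to lysosomal genes. The paper reports that most transcripts raised with age were also raised in ALS. Its count took protein-coding genes with a log2 fold change above 1 at an adjusted p under 0.05 (DESeq2). The 21 of 25 above used no fold change threshold, so the 2 are not alike. The members with a more negative change were the 5 that were lower in ALS together with Plbd2 and Atp6v0d1. Of these, Ids and Atp6v0d1 were not called without the old library that stood apart. Over all fits that left out a library, the calls of Ids and Atp6v0d1 were each lost in 5. That of Atp6v1h was lost in 3 (adjusted p up to 0.113, edgeR). Of the more positive ones, those lost most often were Idua, in 5, and Lipa, in 4. The difference was -0.46 ± 0.08 for Atp6v0a1 (adjusted p = 0.000243, edgeR) and -0.57 ± 0.14 for Atp6v1b2 (adjusted p = 0.00281, edgeR). Among the more positive ones it was 1.47 ± 0.22 for Laptm5, 1.38 ± 0.23 for Gusb, 1.29 ± 0.21 for Cd63, 1.22 ± 0.32 for Cd68 and 1.20 ± 0.20 for Hexa. No member was called in opposite directions in the 2 experiments. Age, sex, kit and depth also differ between the experiments and cannot be told apart from them.

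**Figure D4:**
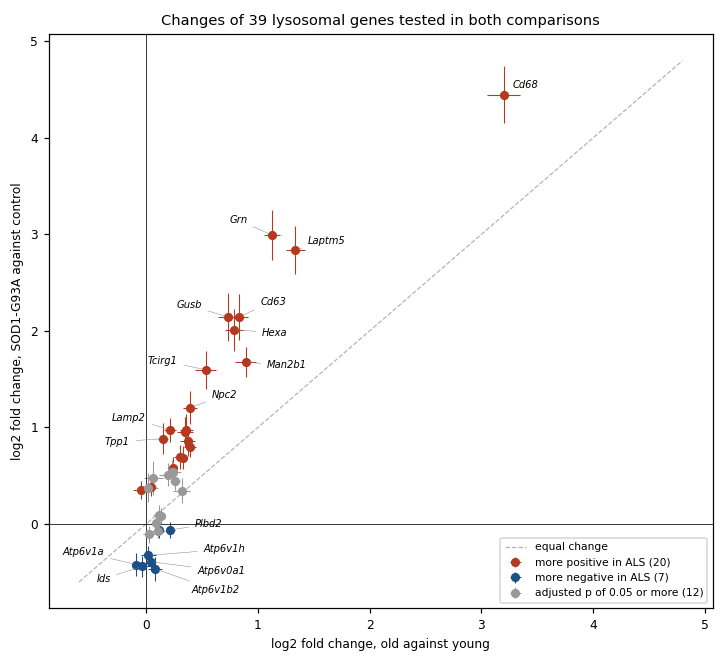
Log2 fold change of SOD1-G93A against control mice (y axis) set against that of old against young mice (x axis), both ± standard error, for the 39 members tested in both, coloured by the test of the difference. The 20 red points had a more positive and the 7 blue points a more negative change in ALS, and the dashed line marks equal change.

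Levels of several cell type markers also differed between the groups. The summed CPM of 12 microglia markers ranged from 418 to 457 in young, 657 to 1022 in old, 440 to 521 in control and 1573 to 2970 in SOD1-G93A mice, and 9 of the 12 were called higher in aging and 8 in ALS. Over the same libraries the 8 glycosidases summed to 278 to 311, 319 to 435, 272 to 274 and 483 to 795 CPM. The 10 neuron markers summed to 7604 to 8724 CPM in young, 6362 to 8631 in old, 8813 to 9392 in control and 3457 to 5870 in SOD1-G93A mice. Of these 10, 6 were lower and 1 was higher in old mice, and 8 were lower in SOD1-G93A mice. The 8 V-ATPase members summed to 2112 to 2324, 2145 to 2460, 2019 to 2133 and 1673 to 1890 CPM. The median change of the neuron markers was -0.17 in aging and -0.78 in ALS. That of the tested V-ATPase members was 0.08 in aging and -0.19 in ALS. The old library that stood apart had the lowest V-ATPase sum of its group (2145 against 2207 to 2460 CPM). Of 8 astrocyte markers, 4 were called higher in aging and 5 in ALS, and in SOD1-G93A mice they summed to 10783 to 17257 CPM against 5308 to 5795 CPM in controls. Of 8 oligodendrocyte markers, 4 were called lower and 1 higher in aging, and 1 was called higher in ALS. Their sums overlapped between the groups in both experiments. All 4 tested ependymal markers were higher in ALS.

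Markers of border macrophages and monocytes summed to at most 10.3 CPM in old and 19.4 CPM in SOD1-G93A mice, against at most 6.36 CPM in young and 4.71 CPM in controls. Those of neutrophils, of T and NK cells and of B cells stayed at or under 3.17 CPM in every library, with the neutrophil gene Ly6g at 0 in all 22 and the B cell gene Ms4a1 at 0 in the control and SOD1-G93A libraries. The old library that stood apart had the lowest microglia sum of its group (657 against 850 to 1022 CPM) and the highest neuron sum (8631 against 6362 to 7728 CPM), and the lowest value of its group in 13 of the 25 members called higher. The SOD1-G93A library with the lowest total count had the lowest microglia sum of its group (1573 against 2307 and 2970 CPM), the lowest astrocyte sum (10783 against 15323 and 17257 CPM) and the highest neuron sum (5870.3 against 3457 and 3874 CPM). The part of these marker levels in the changes of the lysosomal genes was not tested.

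**Figure D5:**
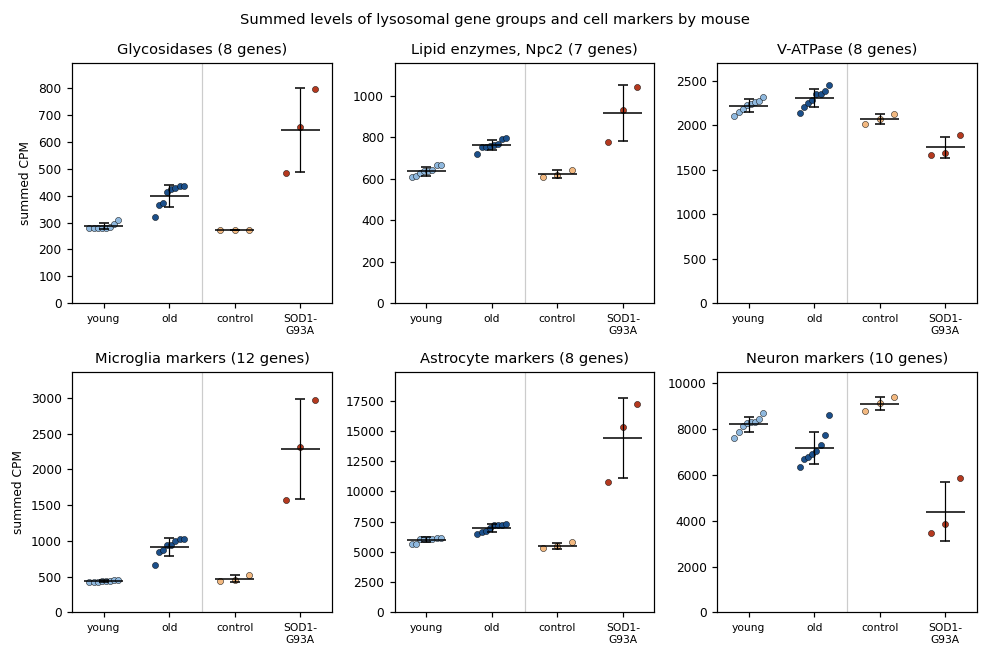
Summed CPM (y axis, linear from 0) in each mouse of 3 groups of members (glycosidases, lipid enzymes with Npc2, V-ATPase) and of microglia, astrocyte and neuron markers, with points for mice and bars for the mean ± SD. Glycosidase and microglia sums were higher in old and SOD1-G93A mice, and V-ATPase and neuron sums were lowest in SOD1-G93A mice.

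Lysosomal genes outside the 42 were read from wider lists. Of 52 other tested lysosomal genes, 25 were higher and 0 lower in old mice, with a median change of 0.18, against 13.5% and 12.9% of all genes. In ALS 31 rose and 5 fell, with a median of 0.53, against 18.4% and 15.5% of all genes. Among the strongest calls were Gpnmb, a glycoprotein of phagocytic cells (5.45 ± 0.39 in aging and 7.10 ± 0.53 in ALS), and Slc15a3, a lysosomal peptide transporter (2.48 ± 0.24 and 4.41 ± 0.33). Of 12 other V-ATPase subunits, 6 were higher and 0 lower in old mice. In SOD1-G93A mice 3 were higher, among them Atp6v0e (0.97 ± 0.21) and Atp6v0a2 (0.60 ± 0.09), and 4 were lower, among them the neuronal Atp6v1g2 (-0.57 ± 0.14) and Atp6v1c1 (-0.37 ± 0.11). The shares of all genes given above apply here too, and 3 of 12 higher is near the 18.4% of all genes.

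Among 15 tested genes of the TFEB family and of the Ragulator and mTORC1 machinery, which senses nutrients on the lysosomal surface, 4 were called in aging and 5 in ALS, shares close to the 26.4% and 33.9% of all genes called in either direction. In old mice 3 were higher, Rragc (0.27 ± 0.04), the TFEB relative Tfe3 (0.28 ± 0.07) and Lamtor1 (0.18 ± 0.06), and 1 was lower, Rptor (-0.15 ± 0.06). In SOD1-G93A mice 4 were higher, with Tfe3 at 0.48 ± 0.11 and Flcn at 0.42 ± 0.10, and 1 was lower, Mtor (-0.43 ± 0.11).

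The motif CACGTG, the core of the element that TFEB and related factors bind, was searched on both strands, which read the same, in windows from 250 bases before to 50 after each gene's start (RefSeq, GRCm38.p6). Of the 42 members 36 had a window, and 10 of these, or 27.8%, held the motif, against 8.09% of 27025 genes. Of these 10, 9 were tested, with 5 called higher in aging, and 4 called higher and 1 lower in ALS. Of the 26 members whose windows lack these letters, 18 of 25 tested were called higher in aging, and 20 of 26 higher and 2 lower in ALS. Of all genes, 13.5% were called higher in aging, and 18.4% higher and 15.5% lower in ALS. The longer form TCACGTGA was in the windows of 4 members, Gla, Mcoln1, Atp6v0d1 and Atp6v1a, or 11.1% against 1.12% of all genes. The 150 bases before the start are shown for Lamp1, which held 4 motifs and was higher in both experiments, for Mcoln1, which held 2 and was called in neither, and for Atp6v1a, which held 1 and was lower in SOD1-G93A mice, with the motif in capitals, from chr8:13159011-13159160 (plus strand), chr8:3500369-3500518 (plus strand) and chr16:44139260-44139409 (minus strand).
Lamp1: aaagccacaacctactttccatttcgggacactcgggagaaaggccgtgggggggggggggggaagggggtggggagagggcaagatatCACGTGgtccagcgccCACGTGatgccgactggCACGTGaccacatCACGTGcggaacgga
Mcoln1: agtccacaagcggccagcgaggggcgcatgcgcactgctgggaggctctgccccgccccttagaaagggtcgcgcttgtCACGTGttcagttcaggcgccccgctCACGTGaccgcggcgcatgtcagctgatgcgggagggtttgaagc
Atp6v1a: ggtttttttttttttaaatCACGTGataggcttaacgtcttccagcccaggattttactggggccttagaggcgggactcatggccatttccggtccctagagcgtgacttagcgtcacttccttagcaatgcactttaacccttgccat
The motifs started 61, 45, 28 and 15 bases before the start of Lamp1, 71 and 45 bases before that of Mcoln1, and 131 bases before that of Atp6v1a. A match is a description of letters in a window and does not show binding.

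Some members share their position with other genes. Coding genes on the other strand overlap 10 of the 42, among them Grn (Fam171a2), Lamp1 (Grtp1), Hexa (Tmem202), Atp6v1b2 (Slc18a1) and Atp6v1h (Rgs20), and Tmppe overlaps Glb1 on the same strand. The sources used here do not give whether strand entered the counting, so reads of such partners cannot be told apart in these values.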

How the data were processed

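Whole spinal cord RNA of 22 mice was sequenced on an Illumina HiSeq platform. Per the labels and the study's methods, the authors used STAR for alignment, and RSEM and SAMtools 1.3 for counting on the Ensembl annotation of mm10. The deposited table of expected counts, not normalized between libraries, was the main input and was rounded to whole numbers. The deposited log2 values, log2 of FPKM plus 1, gave levels per length and an alternative test. Columns name a group but not the labels' replicate numbers. The labels number the samples of a group as replicates, taken here as separate mice, and p-values measure the spread between them. No library pair of a group agreed within sampling noise (chi-square per degree of freedom of at least 2.57).

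Genes were kept by filterByExpr (minimum count 10, minimum total 15) for each comparison, scaled by TMM and tested with edgeR 4.0.16 quasi-likelihood fits in R 4.3.3, with Benjamini-Hochberg adjusted p-values over every gene tested. The difference between experiments was an interaction term over all libraries. Values of 3 counts corresponded to 0.32 to 0.582 CPM in the aging and 0.231 to 0.302 CPM in the ALS libraries, and counting limits cover counting error only. On simulated counts with 200 genes changed by 1.5 log2 units, 100% were called among 13568 genes in the aging design and 99% among 14276 in the ALS design, and 7.83% and 5.26% of the calls were false. The changed genes were drawn only from those above a minimum CPM. Most members changed by less, so these shares do not give the recovery of changes of their size. Alternatives were DESeq2 1.42.0, relative log expression scaling, no filter, one fit of all libraries, limma 3.58.1 on the deposited log2 values, and leaving out each ALS library. Promoter windows came from RefSeq (GRCm38.p6), and positions and overlaps from GENCODE M21 (GRCm38).

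Members and lists were chosen with earlier results of these data known. Values in every ALS library, and the lowest, median and highest of the young and old libraries, are given for members that changed by over 1 log2 unit at an adjusted p under 0.05 in either comparison or were lower in either; other members are given by counts, with up to 3 examples per role, and the wider lists by up to 5 genes with the smallest adjusted p. Plbd2, Mcoln1, Mcoln2 and the uncalled members named beside their group fall outside this rule and were named after their values were seen. SOD1-G93A mice with the motor neuron SIRT1 transgene were not analysed here. The result of 1 gene is not reported here.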

Additional observations from a re-analysis of the deposited data

Results flagged for a closer look

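In groups of 8 mice, 82 sets of member values were checked for a single mouse far from the rest, and 9 had one, all of them in old mice. Chance alone marks about 1 set in 20. In 5 of the 9, the far value was the lowest and came from the same old library, the one with the third-lowest total count: Cd63 at 78.8 CPM (next 111 CPM), Laptm5 at 64.6 CPM (next 89.9 CPM), Grn at 68.6 CPM (next 90.3 CPM), Arsa at 29.6 CPM (next 39.3 CPM) and Atp6v1b2 at 514 CPM (next 661 CPM). Its microglia marker sum was 657 CPM against 850 to 1022 CPM in the other old mice, and its neuron marker sum 8631 against 6362 to 7728 CPM, whose part in these values was not tested.

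The other 4 came from different libraries. Lipa was lowest at 37.2 CPM (next 44.3 CPM), Asah1 was highest at 92.8 CPM (next 81.2 CPM), and the sparsely counted Mcoln2 and Mcoln3 were highest at 0.821 CPM (next 0.32 CPM) and 1.36 CPM (next 0.64 CPM).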

How the results depend on the processing

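DESeq2 called 1 member and 2 genes of the wider lists lower in aging, where edgeR called 0 and 1. Without a filter, and in one fit of all libraries, 5 members were higher by over 1 log2 unit in aging, since Mcoln3 and Atp6v0d2 were then tested. Limma on log2(FPKM + 1) called 3 genes of the wider lists lower in ALS against 10, and put 66.6% of all ALS calls in the higher direction against 54.2%. An alternative chosen after seeing the data, without the old library least like its group, called 1 member lower in aging. Leaving out each ALS library in turn, with the filter applied anew, members higher by over 1 log2 unit in ALS numbered 11 to 17, always including Mcoln3 and Atp6v0d2. Members lower in ALS numbered 0 to 5 (0 without the control library of lowest or middle total or the SOD1-G93A library of middle total, 2 without the control library of highest total, 3 without the SOD1-G93A library of highest total). Wider-list genes lower in ALS numbered 1 to 12, and differences between experiments 13 to 24 more positive and 4 to 7 more negative. Uncalled members changed sign: Tfeb in aging (-0.118) and Neu1 in ALS (0.049) under limma, Mcoln1 in ALS in one fit (-0.017) and over left-out libraries (-0.020 to 0.041), and the differences of Sgsh without a filter (-0.028) and over left-out libraries (-0.062 to 0.099) and of Smpd1 (-0.101 to 0.027). Under limma 5 aging calls (Asah1, Galc, Tpp1, Atp6v0d1 and Atp6ap1) and 2 ALS calls (Idua and Atp6v1a) were lost, and in edgeR that of Tpp1 in aging in one fit (adjusted p = 0.104) and that of Atp6v0d1 without a filter. The cause was not tested. No paired analysis was possible because the columns carry no replicate numbers.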
